A study of Homo sapiens with 6 samples.

Results

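Small nuclear, nucleolar and other structured RNAs were followed in H1155 cells through the rows that the deposited gene table assigns to the biotypes snRNA, snoRNA, scaRNA and misc_RNA. Members were chosen by level, as the rows with at least 30 raw counts summed over the 6 libraries, which left 117 of the 5122 rows of these biotypes and of the 58735 genes in the table. They comprised 26 of 1909 snRNA rows, 42 of 943 snoRNA rows, 2 of 49 scaRNA rows and 47 of 2221 misc_RNA rows. Of the other rows, 3574 had no count in any library and 1431 had between 1 and 29. Just outside the minimum lay 9 rows with 29 counts and just inside it 4 members with 30, and 34 members had no more than 39. The minimum uses the sum over both groups, so a row high in a single group can enter through it: in 22 members the WT libraries alone reached 15 counts while the GFI1-KO libraries did not, and in 13 members the reverse held.

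H1155 is a human lung cancer cell line that expresses GFI1, a transcriptional repressor known from blood cells. RNA-Seq counts came from 3 libraries of the parental line, labelled WT, and 3 libraries labelled GFI1-KO, from cells in which CRISPR/Cas9 with a pair of guides was aimed at the GFI1 promoter region and which were then sorted as monoclonal lines. The sources do not state how many clones the GFI1-KO libraries represent or whether the libraries of a group are separate cultures, so p-values measure only the spread between these libraries. Clonal differences and the edit cannot be told apart in this design. GFI1 had normalized counts of 157, 117 and 131 in WT and 166, 178 and 160 in GFI1-KO. The count of the targeted gene was thus not lower but was called higher (log2 fold change 0.31, adjusted p = 0.0273, edgeR). Libraries are named by their labels. Library totals lay between 14882914 and 17692882 counts, where 3 counts correspond to between 0.17 and 0.202 CPM (counts scaled to the library total). All 12 neuroendocrine markers examined passed the filter on low counts, 7 of them higher and 5 lower in GFI1-KO by edgeR, or 4 higher and 7 lower with offsets for GC content and length, while the 5 leukocyte markers together stayed between 2.1 and 11.3 in every library and CD3E was at 0. In cell populations of this kind, fewer cells making an RNA and less RNA per cell cannot be told apart.

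Structured RNAs work as folded RNA in complexes with proteins. The U snRNAs build the spliceosome or, for U7, process histone mRNA ends. Box C/D and box H/ACA snoRNAs guide 2′-O-methylation and pseudouridylation of ribosomal RNA, scaRNAs do the same for snRNAs in Cajal bodies, 7SL is the RNA of the signal recognition particle that brings ribosomes to the endoplasmic reticulum, 7SK holds the elongation factor P-TEFb inactive, and Y RNAs bind the Ro and La proteins. Most mature forms end without a poly(A) tail, and the libraries were made from RNA purified on poly-T beads. In human cells most snoRNAs sit in introns of other genes, whereas 7SL, U6, 7SK and Y genes have their own promoters and many scattered copies.

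The 7SL genes come first because they hold the largest difference. RN7SL2 (ENSG00000274012) lies on the minus strand at chr14:49862550-49862849 and RN7SL3 (ENSG00000278771) at chr14:49853616-49853914 on the same strand, in hg38. RN7SL1, at chr14:49586580-49586878, is another gene of the same RNA.

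RN7SL1 and RN7SL2 were 98.3% identical over 300 aligned positions. RN7SL3 and RN7SL2 were 96% identical. Of the 50-base words of RN7SL2, 86.9% also occurred elsewhere in the genome, in up to 20 places, against 38% of those of RN7SL3. How the counting treated reads that match several places is not stated, so a count given to one of these genes cannot be told apart from reads of its near-identical copies.

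RN7SL2 had 22, 10 and 28 counts in the WT libraries and 3245, 3607 and 2854 in the GFI1-KO libraries. The lowest GFI1-KO library thus held many times the highest WT library. Its normalized count averaged 21 ± 9.26 over WT and 3065 ± 367 over GFI1-KO libraries (SD, n = 3 each). The log2 fold change, fitted by edgeR with its standard error (SE) and a p adjusted over all genes tested, was 7.17 (SE 0.13, adjusted p = 5.9e-25). With offsets for the GC content and length of each gene, fitted in each library, it was 6.37 for RN7SL2 and 4.60 for RN7SL3 (adjusted p = 3.2e-21 and 3.8e-09, edgeR). The ratio of the summed RN7SL2 counts, each taken over the summed effective library sizes (TMM) of its group, was 145. Its 95% interval from 112 to 190 covers counting error only. The noncoding gene AL627171.2, whose exon spans RN7SL2 on the same strand, averaged 4.27 ± 2.89 normalized counts across the WT libraries and 3.17 ± 3.07 across those labelled GFI1-KO (SD, n = 3 each).

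RN7SL3 had 3, 0 and 2 counts in WT and 72, 100 and 72 in GFI1-KO (log2 fold change 5.35, SE 0.42, adjusted p = 8.8e-12, edgeR). Its groups were also far apart, at a ratio of 43.6 with a counting interval from 18.4 to 136. RN7SL5P (ENSG00000265735), a copy at chr9:9442060-9442380 on the strand opposite PTPRD, had 1, 0 and 0 counts in WT and 20, 40 and 7 in GFI1-KO. It did not pass the filter on low counts, and its ratio of 59.9 had a counting interval from 10.4 to 2402. RN7SL1 was at 0 in all 6 libraries, as was AL139099.4, a row that covers it on the same strand.

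The other 7SL members were not called higher. Of the 16 other 7SL members, which are scattered copies named as pseudogenes or by their Rfam family, 9 were tested, 3 were lower and 0 higher by edgeR, at the threshold used throughout (adjusted p up to 0.05). RN7SL268P, the one of them with the most counts, had 31, 29 and 30 counts in WT and 41, 47 and 28 in GFI1-KO, and its groups overlapped (log2 fold change 0.20, SE 0.26, adjusted p = 0.482, edgeR). RN7SL481P and RN7SL535P, both in introns of CASP2, an apoptotic protease, and RN7SL81P, in an intron of CALU, a calcium-binding protein of the endoplasmic reticulum, were the lower ones, with log2 fold changes of -1.42, -1.07 and -1.04 (adjusted p = 0.0076, 0.0287 and 0.0211, edgeR). Summed over these 16 members, the normalized count averaged 214 ± 20.7 over WT and 182 ± 37.1 over GFI1-KO libraries (SD, n = 3 each), and the groups overlapped.

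**Figure D1:**
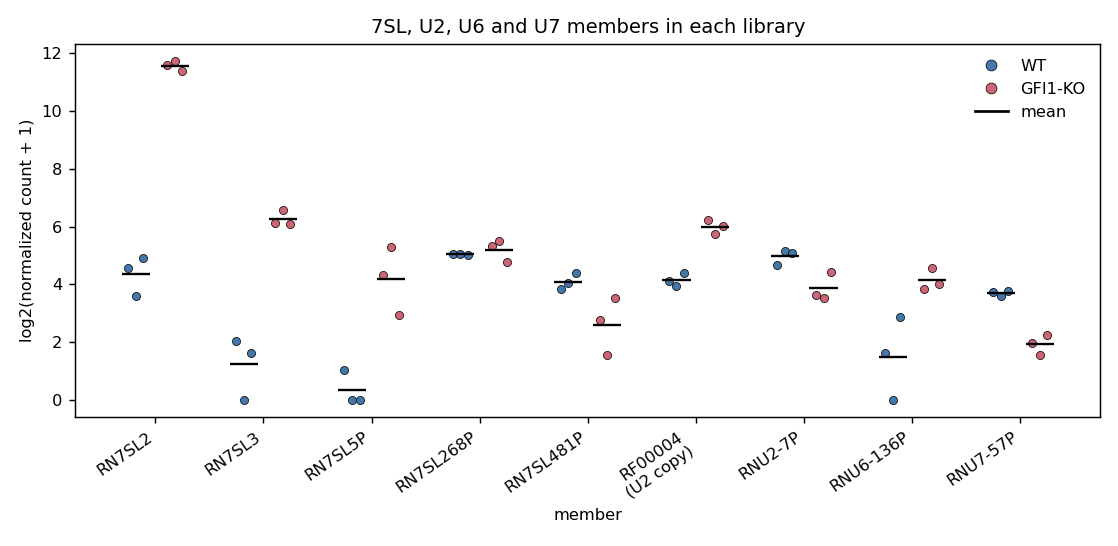
Normalized counts, as log2(normalized count + 1), of 9 members in each of the 3 WT and 3 GFI1-KO libraries, with 1 point per library and a line at the mean of the plotted values. RN7SL2, RN7SL3, RN7SL5P, the U2 copy and RNU6-136P have every GFI1-KO point above every WT point, RNU2-7P, RN7SL481P and RNU7-57P have them below, and RN7SL268P overlaps.

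Among the snRNA members a U2 copy led. This row, named RF00004 after the U2 family (ENSG00000278048), lies on the minus strand at chr17:43251829-43252019, in an intron of CCDC200, an uncharacterized protein-coding gene. It is shown because its bases equal those of RNU2-1, the standard U2 gene, whereas RNU2-7P at chr13:20612161-20612338 is a diverged copy. Capitals mark bases of RNU2-7P that differ from the U2 copy.
U2 copy (RF00004): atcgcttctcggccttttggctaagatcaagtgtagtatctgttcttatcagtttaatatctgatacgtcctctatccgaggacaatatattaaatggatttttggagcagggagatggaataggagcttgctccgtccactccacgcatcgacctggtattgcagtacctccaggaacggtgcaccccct
RNU2-1: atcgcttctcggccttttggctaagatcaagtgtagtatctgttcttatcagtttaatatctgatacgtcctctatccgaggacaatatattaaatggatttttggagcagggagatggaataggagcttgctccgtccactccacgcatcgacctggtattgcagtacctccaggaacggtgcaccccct
RNU2-7P: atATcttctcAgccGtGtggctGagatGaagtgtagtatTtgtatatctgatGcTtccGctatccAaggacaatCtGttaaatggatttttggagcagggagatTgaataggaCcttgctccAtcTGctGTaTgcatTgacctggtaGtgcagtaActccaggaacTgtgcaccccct

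The U2 copy was 100% identical to RNU2-1 and each of its 50-base words also occurred elsewhere, in up to 16 places. RNU2-7P was 79.6% identical to it over 191 aligned positions. RNU2-1 was at 0 in all 6 libraries.

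The U2 copy had 16, 13 and 19 counts in WT and 77, 56 and 67 in GFI1-KO. All GFI1-KO libraries were higher (log2 fold change 1.89, SE 0.26, adjusted p = 2.6e-07, edgeR). CCDC200 itself averaged 20.4 ± 2.46 normalized counts over WT and 30.7 ± 6.64 over GFI1-KO libraries (SD, n = 3 each) and was not called (log2 fold change 0.58, adjusted p = 0.0734, edgeR). RNU2-7P went the other way, with 24, 31 and 31 counts in WT and 12, 11 and 22 in GFI1-KO (log2 fold change -1.09, SE 0.33, adjusted p = 0.00439, edgeR). RNU2-7P lies in an intron of IFT88, a gene of ciliary transport, which was lower as well at a log2 fold change of -0.62 (adjusted p = 5.8e-09, edgeR). With the GC and length offsets IFT88 stood at 0.01 (adjusted p = 0.928, edgeR).

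U6 forms the catalytic centre of the spliceosome, and 19 members bear its name, each as a numbered pseudogene copy. RNU6-136P (ENSG00000207393, chr2:218589214-218589320, minus strand) is shown as the U6 member that was higher, with capitals at the bases that differ from RNU6-1.
RNU6-136P: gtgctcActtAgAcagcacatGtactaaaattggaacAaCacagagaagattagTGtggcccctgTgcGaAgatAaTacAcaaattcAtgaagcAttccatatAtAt

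RNU6-136P was 83.2% identical to RNU6-1 over 107 positions, and none of its 50-base words occurred elsewhere. It had 2, 0 and 6 counts in WT and 14, 24 and 16 in GFI1-KO (log2 fold change 2.54, SE 0.56, adjusted p = 2.5e-04, edgeR). It lies on the strand opposite CNOT9, a subunit of the deadenylase complex CCR4-NOT, which was lower at -0.19 (adjusted p = 4.1e-05, edgeR). Of the 5 U6 members tested, RNU6-216P and RNU6-882P were lower at log2 fold changes of -1.26 and -1.14 (adjusted p = 0.0124 and 0.0366, edgeR), opposite SPCS2 and IL17RC, which were higher at 0.38 and 1.02 (adjusted p = 3.1e-08 and 3.0e-12, edgeR). Summed over the 19 U6 members, the normalized count averaged 171 ± 18.9 over WT and 123 ± 9.43 over GFI1-KO libraries (SD, n = 3 each). Every GFI1-KO library lay below every WT library (two-sided exact permutation p = 0.1, which is the lowest value open to 3 against 3 libraries).

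RNU7-57P (chr1:154338743-154338802, plus strand), a copy of the U7 RNA, had 12, 10 and 12 counts in WT and 3, 2 and 4 in GFI1-KO (log2 fold change -2.03, SE 0.51, adjusted p = 9.5e-04, edgeR). It sits in an intron of ATP8B2, a phospholipid flippase, which was higher at 0.28 (adjusted p = 5.1e-06, edgeR). The remaining spliceosomal families had few counts and were not tested. The U1 copies RNU1-70P and RNU1-103P had 10, 4 and 6 and 7, 7 and 8 counts in WT and 7, 3 and 14 and 8, 3 and 9 in GFI1-KO, so that both overlapped between the groups. RNU4-89P, a U4 copy, had 7, 10 and 9 counts in WT and 2, 8 and 1 in GFI1-KO, which overlapped. The minor-spliceosome copy RNU6ATAC16P had 10, 2 and 6 counts against 5, 4 and 12 and overlapped too.

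Of the 117 members, 51 passed edgeR's filter on low counts and 66 did not. Of the 51, 8 were higher and 21 lower in GFI1-KO by the threshold (adjusted p up to 0.05), which is 15.7% and 41.2%. Over all 17514 genes tested, 36.5% were higher and 35.9% lower, and among the 4279 genes with a mean normalized count under 50 the shares were 23.7% and 23.2%. With this filter the share of members called higher was below both backgrounds and the share called lower was above both. The groups did not overlap in 31 of the 51 tested members, or 60.8%, against 74.4% of all genes tested. The median log2 fold change of the tested members was -0.69, compared with 0.00 over all genes tested and -0.02 among those with a mean under 50. These values describe the members that passed the filter and not the other 66. A row can pass it through the libraries of a single group. With a minimum of 10 counts in every library, given further on, the share of tested members called lower was smaller. It was then below the 35.9% of all genes tested with the main filter. The contrast with the backgrounds is therefore not read as a trait of the members. Of the 29 calls, 13 were lost when 1 library was left out.

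**Figure D2:**
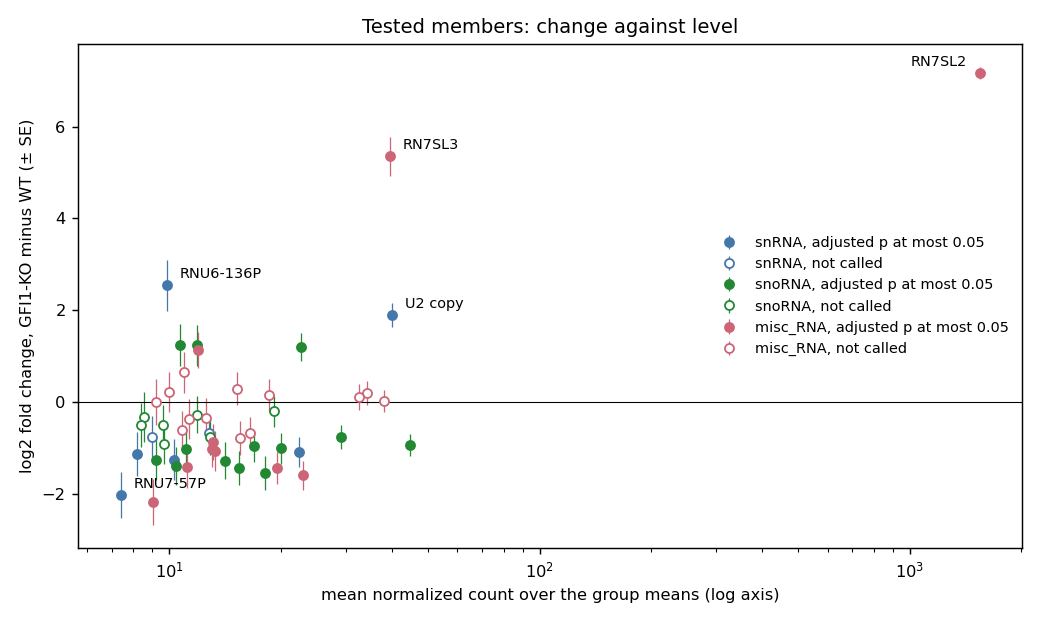
Log2 fold change (GFI1-KO minus WT) with its SE against the mean normalized count on a log axis for the 51 tested members, coloured by biotype, with filled points for an adjusted p of at most 0.05. RN7SL2 at 7.17 and RN7SL3 at 5.35 stand above the rest, while the 21 lower members lie between -2.19 and -0.77.

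By biotype, 2 of 8 tested snRNA members were higher and 4 lower, 3 of 20 tested snoRNA members were higher and 10 lower, and 3 of 23 tested misc_RNA members were higher and 7 lower. Neither scaRNA member was tested. SCARNA13 had 9, 14 and 7 counts in WT and 9, 5 and 6 in GFI1-KO, and SCARNA6 had 2, 6 and 12 against 4, 1 and 5, and both overlapped between the groups.

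The snoRNA members were named as box C/D (21), box H/ACA (15) or by another Rfam family (6). Examples that changed are printed with their defining motifs in capitals, TGATGA near the 5′ end and CTGA near the 3′ end for box C/D, and ACA near the 3′ end for box H/ACA.
SNORD17: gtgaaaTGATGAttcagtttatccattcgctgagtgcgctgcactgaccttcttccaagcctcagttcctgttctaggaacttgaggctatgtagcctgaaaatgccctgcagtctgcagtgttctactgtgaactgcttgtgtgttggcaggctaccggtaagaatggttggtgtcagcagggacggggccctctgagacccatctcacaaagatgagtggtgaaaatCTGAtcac
SNORD83A: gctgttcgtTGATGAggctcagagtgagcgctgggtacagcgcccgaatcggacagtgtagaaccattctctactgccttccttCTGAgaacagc
SNORD104: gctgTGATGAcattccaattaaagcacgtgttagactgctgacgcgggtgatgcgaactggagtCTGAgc
SNORD94: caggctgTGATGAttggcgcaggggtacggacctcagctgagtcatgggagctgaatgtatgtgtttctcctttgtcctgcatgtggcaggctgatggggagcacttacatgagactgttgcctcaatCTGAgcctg
SNORA11F: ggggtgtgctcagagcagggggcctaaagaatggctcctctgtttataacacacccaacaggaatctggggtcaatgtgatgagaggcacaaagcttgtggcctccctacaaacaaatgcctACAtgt
SNORA73B: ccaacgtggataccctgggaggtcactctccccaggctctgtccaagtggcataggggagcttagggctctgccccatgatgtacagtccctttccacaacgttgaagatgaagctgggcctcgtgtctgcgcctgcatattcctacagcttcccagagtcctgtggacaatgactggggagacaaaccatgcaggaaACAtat

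TGATGA in the first 40 bases was found in 17 of the 21 box C/D members, CTGA in the last 30 bases in 20 and both in 17, on the strand of the gene only. Of the 81 members outside the box C/D and box H/ACA families, 1 held both. ACA began within the last 8 bases in 13 of the 15 box H/ACA members and in 12 of those 81.

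Of 11 tested box C/D members, 2 were higher and 5 lower. SNORD17 (chr20:17962710-17962946, minus strand), the snoRNA with the most counts, had 49, 43 and 75 counts in WT and 32, 35 and 30 in GFI1-KO. Its log2 fold change was -0.94 (SE 0.24, adjusted p = 0.00108, edgeR), and every GFI1-KO library was lower. SNORD83A (chr22:39315213-39315307, minus strand) had 32, 36 and 36 counts in WT and 20, 22 and 26 in GFI1-KO, again without overlap (log2 fold change -0.77, SE 0.27, adjusted p = 0.0116, edgeR). SNORD62B, whose 50-base words all occur elsewhere too, had 30, 22 and 24 counts in WT and 16, 18 and 8 in GFI1-KO (log2 fold change -1.01, adjusted p = 0.00962, edgeR). SNORD69 and SNORD100 were lower at -1.40 and -1.26 (adjusted p = 0.00422 and 0.0123, edgeR).

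Both box C/D members that were higher had few counts, SNORD104 73 and SNORD94 66 over the 6 libraries. SNORD69 and SNORD100, which were called lower, had fewer, at 61 and 54. SNORD104 (chr17:64146083-64146152, plus strand) had 10, 5 and 5 counts in WT and 20, 23 and 10 in GFI1-KO, with overlap once normalized (log2 fold change 1.23, SE 0.44, adjusted p = 0.0137, edgeR). SNORD94 (chr2:86135870-86136006, plus strand), a guide for modification of U6 snRNA, had 8, 2 and 8 counts in WT and 13, 16 and 19 in GFI1-KO without overlap (log2 fold change 1.24, SE 0.45, adjusted p = 0.0151, edgeR). SNORD3A, the U3 RNA that takes part in processing of the ribosomal RNA precursor, had 2, 6 and 3 counts in WT and 6, 13 and 11 in GFI1-KO and was not tested. SNORD3A counts overlapped between the groups, and 96.9% of its words occur elsewhere.

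Of 9 tested box H/ACA members, 1 was higher and 5 lower. SNORA73B (chr1:28508559-28508762, plus strand), one of the U17 RNAs needed to make 18S ribosomal RNA, had 25, 19 and 33 counts in WT and 9, 14 and 6 in GFI1-KO. Its groups did not overlap (log2 fold change -1.55, SE 0.37, adjusted p = 4.9e-04, edgeR). SNORA71B, SNORA71A, SNORA65 and SNORA33 were lower at -1.45, -1.28, -1.02 and -0.96 (adjusted p = 0.00113, 0.00662, 0.0349 and 0.0162, edgeR). SNORA71C, of the same cluster as SNORA71A and SNORA71B, had 14, 20 and 24 counts in WT and 16, 19 and 21 in GFI1-KO and was not called (adjusted p = 0.57, edgeR), but it was called lower with the GC and length offsets, at -0.86 (adjusted p = 0.0275, edgeR). SNORA11F (chr10:73126080-73126207, minus strand) was the box H/ACA member that was higher, with 13, 11 and 15 counts in WT and 36, 32 and 32 in GFI1-KO (log2 fold change 1.19, SE 0.30, adjusted p = 0.00105, edgeR). SNORA11F lies opposite NUDT13, which was not called at -0.15 (adjusted p = 0.379, edgeR).

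Among the misc_RNA members, 19 belong to the Y RNA family, and 6 of them were tested. None of these was called higher, and 3 were lower. The Y RNA copy ENSG00000200090, on an exon of FNBP4, had 36, 32 and 30 counts in WT and 11, 9 and 16 in GFI1-KO (log2 fold change -1.60, SE 0.32, adjusted p = 7.1e-05, edgeR). The copy ENSG00000239040, in an intron of TMEM165, had the most negative change of the tested members, at -2.19 (SE 0.50, adjusted p = 3.5e-04, edgeR), and the copy ENSG00000222881, in an intron of TOP2A, was lower at -0.88 (adjusted p = 0.0443, edgeR). The copy with the most counts, ENSG00000207425, had 34, 31 and 42 counts in WT and 43, 41 and 37 in GFI1-KO and was not called (log2 fold change 0.02, SE 0.24, adjusted p = 0.952, edgeR). The Y RNA sum averaged 239 ± 6.08 normalized counts over WT and 161 ± 5.83 over GFI1-KO libraries (SD, n = 3 each), without overlap.

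Of the 5 members related to 7SK, 4 were tested and RN7SKP16, in an intron of PHC2, was lower, with 22, 22 and 37 counts in WT and 9, 9 and 15 in GFI1-KO (log2 fold change -1.45, SE 0.35, adjusted p = 6.9e-04, edgeR). RN7SK itself was at 0 in every library, and another short row covers it on the same strand. AC012531.4 and AC012531.3 (chr12:53968351-53968501 and chr12:53968002-53968178, plus strand) lie opposite HOTAIR, a long noncoding RNA of the HOXC cluster. AC012531.4 had 6, 9 and 6 counts in WT and 16, 21 and 15 in GFI1-KO (log2 fold change 1.13, SE 0.40, adjusted p = 0.0141, edgeR). AC012531.3 was not called at 0.28 (adjusted p = 0.495, edgeR), while HOTAIR was higher at 1.12 (adjusted p = 3.2e-14, edgeR). The strand setting of the counting is not stated, so reads of HOTAIR and of rows opposite to it cannot be told apart.

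Summed over all 117 members, the normalized count averaged 1415 ± 84.8 over WT and 4221 ± 405 over GFI1-KO libraries (SD, n = 3 each), a ratio of 2.98. Without RN7SL2 the sums were 1394 ± 78.6 and 1156 ± 42.5 (SD, n = 3 each), a ratio of 0.829, and each GFI1-KO library was then below each WT library. Members took on average 0.00859% of all counts in WT and 0.0253% in GFI1-KO. A single gene thus set the direction of the total.

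The misc_RNA sum averaged 581 ± 51 over WT and 3608 ± 417 over GFI1-KO libraries (SD, n = 3 each), and without RN7SL2 it was 560 ± 43.8 and 543 ± 58.2 (SD, n = 3 each) with overlap. The snRNA sum overlapped at 260 ± 18.3 and 227 ± 24 (SD, n = 3 each), and without the U2 copy it was 243 ± 18.7 and 164 ± 15.7 (SD, n = 3 each) without overlap. The snoRNA sum fell short of WT in each GFI1-KO library, at 376 ± 11.4 against 556 ± 27.5 (SD, n = 3 each). The exact two-sided permutation p was 0.1 for each sum without overlap.

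**Figure D3:**
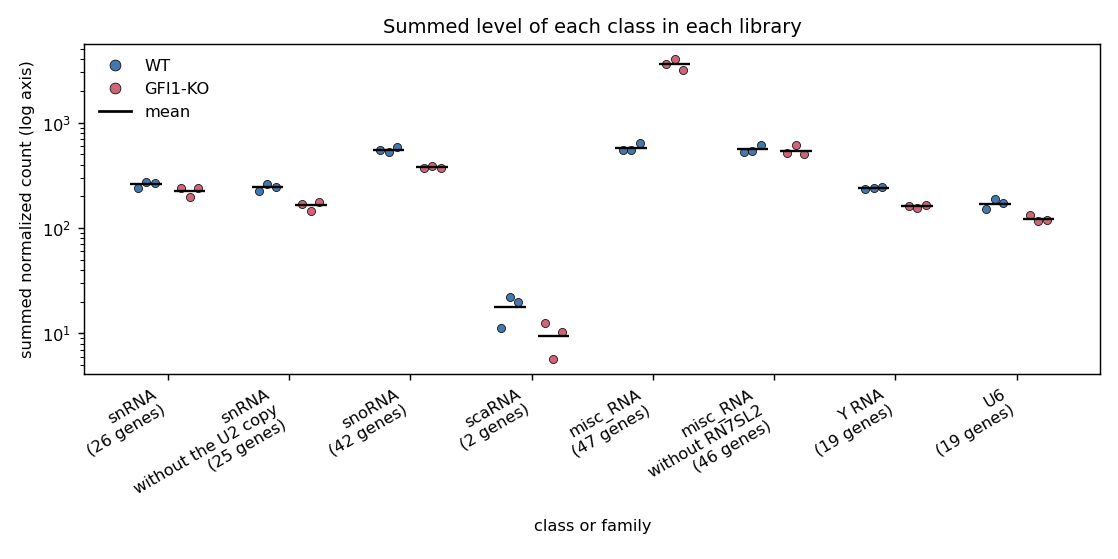
Summed normalized counts (log axis) of the members of each biotype and of the Y RNA and U6 families in each of the 3 WT and 3 GFI1-KO libraries, with a line at the group mean. The misc_RNA sum goes from 581 to 3608 with RN7SL2 and from 560 to 543 without it, and the snoRNA, Y RNA and U6 sums are lower in every GFI1-KO library.

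Other RNAs that poly-T beads should hold only in part moved between the groups as well. Histone genes, taken as replication-dependent by their HIST names alone, summed to 1116 ± 28.5 normalized counts over WT and 4450 ± 94.4 over GFI1-KO libraries (SD, n = 3 each). Of the 24 tested, 21 were higher by edgeR with 0 lower, and 19 with 0 lower after offsets for GC content and length. HIST1H2BK held 22.3% of the counts in this sum. Whether transcripts of these genes carried poly(A) tails was not examined. Mitochondrial ribosomal RNA went from 6620 ± 498 to 13001 ± 237 and mitochondrial tRNA from 595 ± 37.3 to 1671 ± 42 (SD, n = 3 each). The part of the poly-T selection in the difference of RN7SL2 and the other members was not tested. Without RN7SL2 the members' sum and these sums went in opposite directions.

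Position within other genes was the next feature of the members that the choice had not used. A gene of another biotype held the member on the same strand for 80 of 117, in an intron for 65 and on an exon for 14. The identifier of 1 host was missing from GENCODE release 44. Where several genes held a member, a protein-coding gene was taken first as the host, then the shortest. Another gene may therefore hold the member as well. Such hosts were found for 40 of 44 snoRNA and scaRNA members and for 40 of 73 snRNA and misc_RNA members. In these counts, reads of such a member cannot be told apart from reads of its host's unspliced transcript. A gene of another kind lay on the opposite strand of 35 members, and 11 members lay on no other gene. More than 10% of the 50-base words of 12 members occurred elsewhere.

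For 32 tested members the host was tested too, over 27 hosts. Over all 32 pairs the host was lower in 16, higher in 11 and not called in 5. Of the 19 members that were lower, 8 had a host that was lower, 8 a host that was higher and 3 a host that was not called. In 25 of the 32 pairs the member's log2 fold change was below its host's, with medians of -0.95 and -0.08. A low-count member can pass the filter through the libraries of a single group, such as WT, while most hosts had far more counts. The 25 pairs and the medians therefore describe the tested pairs only and do not compare members with hosts in general. Across the 32 pairs Pearson's r was 0.14 and Spearman's rho 0.06, as a description, since members of a host share its transcript and all pairs share the 6 libraries. For snoRNA members alone the 10 that were lower had 2 lower, 6 higher and 2 not called hosts. Over all 18 snoRNA pairs the host was lower in 8, higher in 7 and not called in 3.

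In some pairs member and host were called in opposite directions. SNORA73B was lower at -1.55 while RCC1, the exchange factor of the GTPase Ran, was higher at 0.32 (adjusted p = 1.2e-07, edgeR). RCC1 was taken as its host because protein-coding genes came first. Noncoding genes that may also hold SNORA73B were not compared. SNORA65 was lower at -1.02 while RPL12, a protein of the large ribosomal subunit, rose from 5328 ± 426 to 9125 ± 166 normalized counts (SD, n = 3 each), at 0.78 (adjusted p = 3.7e-15, edgeR). The call of SNORA65 was lost under 7 of 15 alternatives. SNORD83A was lower while its host RPL3, also of the large subunit, was higher at 0.36 (adjusted p = 1.6e-09, edgeR). SNORD94 was higher at 1.24 while PTCD3, a protein of the mitochondrial ribosome, was lower at -0.51 (adjusted p = 2.0e-11, edgeR). With the GC and length offsets RCC1 and PTCD3 were no longer called, at 0.07 and -0.04 (adjusted p = 0.133 and 0.448, edgeR). SNORD94 lost its call with them too, at 0.78 (adjusted p = 0.142, edgeR). Of the 26 hosts fitted that way 10 were higher and 10 lower, against 10 and 14 of the 27 without the offsets.

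In other pairs member and host changed in the same direction. SNORD17 at -0.94 and its host SNX5, a sorting nexin, at -0.57 were both lower (adjusted p = 7.1e-12 for SNX5, edgeR), as were SNORD69 at -1.40 and its host GNL3, a nucleolar GTPase, at -0.55 (adjusted p = 1.5e-12, edgeR). TOP2A, the topoisomerase of dividing cells, at -0.82 and the Y RNA copy ENSG00000222881 in its intron at -0.88 differed by 0.06, but the copy lost its call under 10 of 15 alternatives, among them the GC and length offsets at -0.59 (adjusted p = 0.191, edgeR), where TOP2A stood at -0.20. The SNORA71 members share the noncoding host SNHG17, which was not called at -0.06 (adjusted p = 0.52, edgeR). SNHG25, the host of SNORD104, averaged 1.06 ± 0.0425 normalized counts over WT and 5.06 ± 2.41 over GFI1-KO libraries (SD, n = 3 each) and was not tested.

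**Figure D4:**
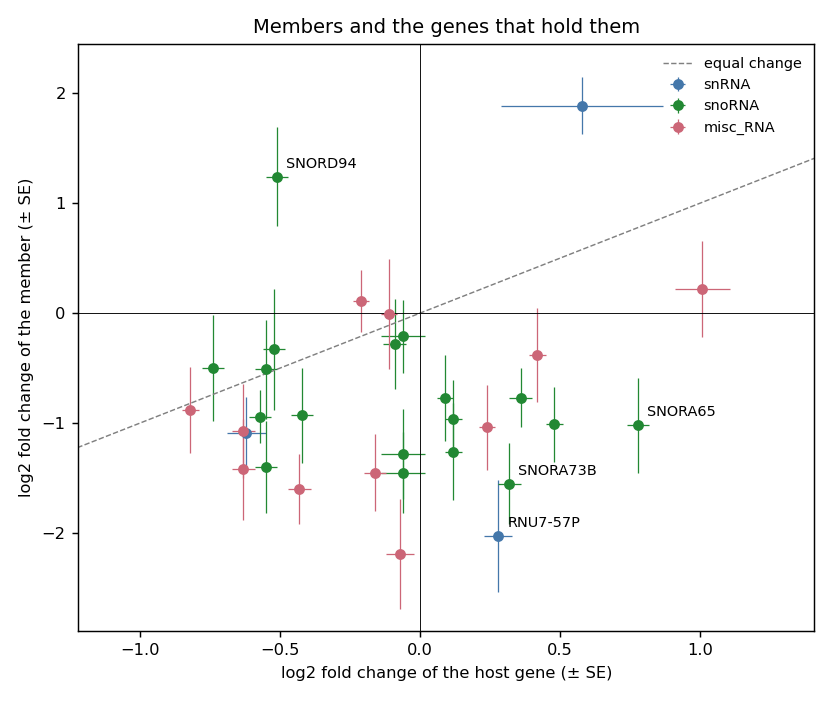
Log2 fold change (GFI1-KO minus WT) of 32 members against that of the gene holding each on the same strand, with standard errors and a dashed line of equal change. Of the points, 25 lie below the line, and SNORA73B, SNORA65 and RNU7-57P are lower while the genes taken as their hosts are higher. A low-count member can pass the filter through the libraries of a single group, while most hosts had far more counts.

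Many of the best-known structured RNA genes had next to no counts. Of 42 rows of such genes, 3 were members (RN7SL2, RN7SL3 and SNORD3A), 13 had between 1 and 29 counts and 26 were at 0 in every library. For 11 of those 26, among them RN7SL1, RN7SK, RMRP, RPPH1, RNU11 and RNU12, another row of less than 6000 bases on the same strand covered at least 90% of the gene. Whether the counting dropped reads that overlap more than 1 row is not stated, so a value of 0 for them is a value of the table and not a measured absence. RN7SL2, with 9766 counts over the 6 libraries, was covered in the same way by AL627171.2. The rest of the 26 rows at 0 had no such short row over them.

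The genes of the proteins that bind or make these RNAs mostly had far more counts and were called in both directions, and the direction of many depended on the correction for GC content and length. Over the 10 lists 40 of 97 genes were higher and 39 lower, or 41.2% and 40.2% against 36.5% and 35.9% of all genes tested. With the correction 38 were higher and 16 lower, or 39.2% and 16.5% against 35.7% and 25.3% of all genes. Of the 79 called genes, 24 (30.4%) then had the opposite sign, as did 21.2% of all called genes. Of 40 spliceosomal snRNP genes, all tested, 22 were higher and 15 lower (median change 0.16 on the log2 scale), and 19 and 6 with the correction. SNRNP35 and LSM7 were higher at 1.62 and 1.56 (adjusted p = 1.4e-13 and 5.3e-16, edgeR), and SNRNP70, which binds U1 RNA, rose from 2730 ± 237 to 6567 ± 251 normalized counts (SD, n = 3 each). LSM5 and SF3B1, the latter of the U2 particle, were lower at -0.66 and -0.58 (adjusted p = 2.7e-13 and 9.2e-15, edgeR), but stood at -0.06 and 0.01 with the correction, where neither was called. SNRNP35, LSM7 and SNRNP70 were also called higher with it, LSM7 at 1.03 and SNRNP70 at 0.71. Of the 10 genes of the SMN complex, which loads Sm proteins on snRNAs, 1 was higher and 4 lower, and of the 14 Integrator genes, which cut nascent snRNA, 4 were higher and 6 lower. With the correction the SMN complex had again 1 and 4, and Integrator 2 and 2. SNAPc, the factor that starts snRNA transcription, had 3 of 5 genes higher and 1 lower, and 2 and 0 with the correction.

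In the box H/ACA particle, NHP2 rose from 325 ± 20.3 to 1472 ± 65 and NOP10 from 532 ± 111 to 1192 ± 14 normalized counts (SD, n = 3 each), while DKC1, the pseudouridine synthase, was lower at -0.14 (adjusted p = 0.0015, edgeR). Altogether 3 of its 6 genes were higher and 3 lower, and with the correction 3 were higher and 0 lower, with DKC1 at 0.00 and NHP2 and NOP10 still higher at 1.82 and 1.16. In the box C/D particle FBL, the methyltransferase, and SNU13 were higher at 0.45 and 0.56, NOP58 was lower at -0.34 and NOP56 was not called at 0.03 (adjusted p = 3.3e-09, 6.1e-13, 6.4e-08 and 0.414, edgeR). Of these SNU13 alone was called with the correction, at 0.36, while FBL and NOP58 stood at 0.05 and 0.01.

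Of the 6 genes for proteins of the signal recognition particle, 1 was higher and 4 lower, and with the correction 2 were higher and 2 lower. SRP9, SRP19, SRP54 and SRP72 were lower at -0.51, -0.57, -0.60 and -0.50 (adjusted p = 1.8e-13, 9.2e-08, 3.8e-13 and 7.6e-13, edgeR), SRP14 was not called at -0.01 (adjusted p = 0.824, edgeR), and SRP68 was higher at 0.19 (adjusted p = 7.1e-05, edgeR). With the correction SRP9 and SRP54 were lower at -0.11 and -0.12, SRP19 was not called at -0.12, and SRP72 turned to 0.12 (adjusted p = 0.00134, edgeR). Of the 7SK proteins, HEXIM1, HEXIM2 and MEPCE were higher at 0.93, 2.01 and 0.83 and LARP7 was lower at -0.25 (adjusted p = 1.4e-14, 3.1e-06, 6.0e-13 and 3.1e-04, edgeR), the last turning to 0.33 with the correction (adjusted p = 1.7e-05, edgeR). The Y RNA partners TROVE2, which encodes Ro60, and SSB, which encodes La, were lower at -0.64 and -0.36 (adjusted p = 1.8e-11 and 3.7e-09, edgeR), but stood at 0.05 and 0.30 with the correction (adjusted p = 0.368 and 3.2e-07, edgeR). Of 6 genes of 3′ processing and the Cajal body, 1 was higher and 2 lower, and 3 and 2 with the correction.

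**Figure D5:**
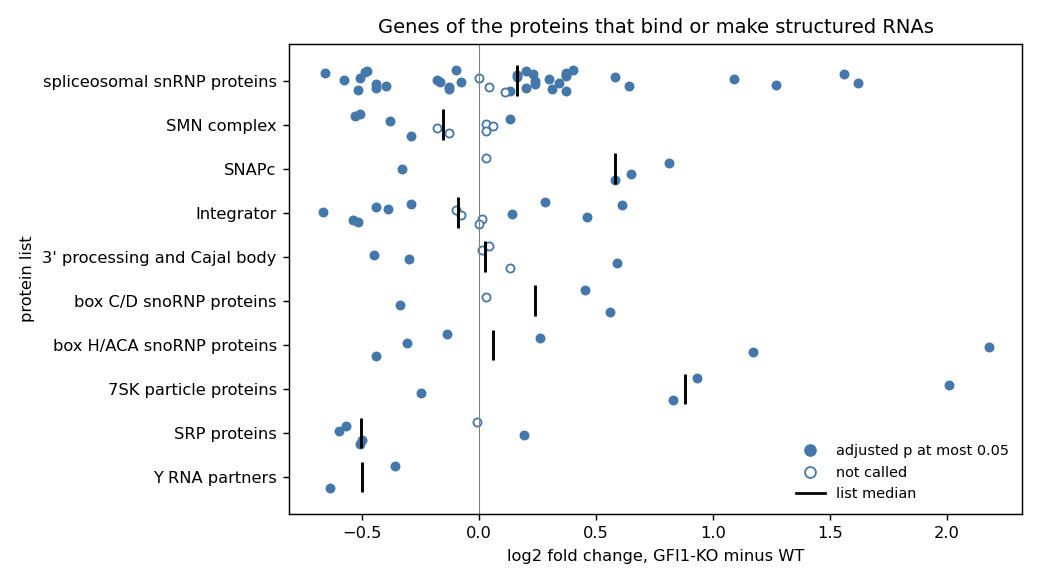
Log2 fold change (GFI1-KO minus WT) of each tested gene in 10 lists of proteins that bind or make structured RNAs, with filled points for an adjusted p of at most 0.05 and a bar at the list median. The medians run from -0.51 for the signal recognition particle to 0.88 for the 7SK particle, and 9 of the 10 lists hold genes on both sides of 0. These values carry no GC and length correction, with which 24 of the 79 called genes change sign, as do 21.2% of all called genes.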

How the data were processed

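Total RNA of H1155 cells was purified on poly-T beads and sequenced on a NovaSeq system. The authors deposited raw counts of reads for each gene. The paper names FastQC, Hisat2 with GRCh38/hg38 and featureCounts, whereas the submitters' processing notes name Bowtie2 and HTSeq, so the aligner and counter are uncertain. The annotation, strand setting and handling of reads with several matches are not given in the sources used here. Members and gene lists were chosen with earlier results of these data known.

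For normalized counts, each count was scaled by the effective library size (TMM) to the mean of the 6 libraries. Genes were tested with edgeR 4.0.16 (R 4.3.3; filterByExpr, quasi-likelihood F test, Benjamini-Hochberg adjustment over all 17514 genes tested, adjusted p of at most 0.05). Standard errors are the size of the log2 fold change over the square root of F. In simulated data with 200 genes changed by a log2 fold change of 1, 87% were recovered and 3.33% of calls were false. All 200 were raised, whereas in the data 6395 of 17514 tested genes were called higher and 6285 lower. The simulated rates may therefore not carry over to the data. Depth was 14882914 to 17692882 counts per library, and intervals and floors cover counting error only, since reads are not independent molecules. Hosts, introns and sequences came from the deposited coordinates, GENCODE release 44 and hg38. The naming rule covered the 3 members of each family with the most counts, the largest changes with a mean of at least 30 normalized counts, their hosts and the listed protein genes. Some members under this rule are not described above. Among them RNU6-322P, RN7SKP74 and RN7SKP97 were not called, at log2 fold changes of -0.69, -0.69 and -0.38 (adjusted p = 0.135, 0.0801 and 0.435, edgeR). RNU6-322P was the U6 member with the most counts. Other members were named after their values were seen. Alternatives were DESeq2 1.42.0, limma-voom (limma 3.58.1), other scaling factors and filters, a replicate block, a GC and length correction, each library left out and other choices of members for the sums. Some sequences and marker values are not reported here.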

Additional observations from a re-analysis of the deposited data

How the results depend on the processing

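Of the 776 alternative values of single members, 666 kept direction and side of the threshold, 69 lost the call, 15 gained one and 26 changed sign, all 26 in 9 members that were not called. Of the 29 called members, 13 kept the call under every alternative run, RN7SL2, RN7SL3, the U2 copy and RNU6-136P among them, and 16 lost it under at least 1. Counts of members stood at 8 higher and 21 lower. DESeq2 gave 7 and 13, a minimum of 10 counts in every library 3 and 4 (of 14 tested), an adjusted p of at most 0.01 gave 5 and 12, and the GC and length correction with the replicate block 5 higher and 21 lower. The GC and length correction alone gave 6 and 23. It ended the calls of SNORA33, ENSG00000222881, SNORD104, SNORD94 and RNU6-882P, added 5 lower ones (SNORA71C among them) and changed the sign of 0 called members and of 4 not called. These were RN7SL268P (-0.23, and -0.25 with the replicate block), RN7SL381P (-0.44 and -0.45), RN7SKP80 (-0.33 and -0.32) and ENSG00000207425 (-0.11 and -0.10, and -0.03 with upper-quartile factors). The replicate block alone gave 8 and 20. Same-numbered libraries deviated from their group means with r of -0.00337, 0.0168 and 0.0230, so the numbers were not taken as a pairing. With no filter, 10 were higher and 25 lower, among them RN7SL5P at a log2 fold change of 5.49 (adjusted p = 7.2e-13, edgeR). Leaving out 1 library gave 7 to 9 higher and 19 to 24 lower. The call was lost, with the log2 fold change given, for AC012531.4 without WT 1, WT 3 or GFI1-KO 2 (0.98 to 1.02), for ENSG00000222881 without WT 2, GFI1-KO 1, GFI1-KO 2 or GFI1-KO 3 (-0.91 to -0.56), for RN7SL481P without GFI1-KO 2 (-1.0), for RN7SL535P without WT 3, GFI1-KO 1 or GFI1-KO 3 (-0.91 to -0.65), for RN7SL81P without WT 3 or GFI1-KO 1 (-0.90 to -0.75), for RNU6-216P without WT 2, GFI1-KO 2 or GFI1-KO 3 (-1.11 to -1.04), for RNU6-882P without WT 1, WT 2, WT 3, GFI1-KO 1 or GFI1-KO 3 (-1.20 to -0.86). It was lost for SNORA33 without WT 2, GFI1-KO 2 or GFI1-KO 3 (-0.90 to -0.76), for SNORA65 without WT 1, WT 2, WT 3, GFI1-KO 1 or GFI1-KO 3 (-1.10 to -0.71), for SNORA71A without WT 1 (-1.02), for SNORD104 without WT 2, WT 3, GFI1-KO 1 or GFI1-KO 2 (1.00 to 1.13), for SNORD62B without GFI1-KO 3 (-0.72), for SNORD94 without WT 2 or GFI1-KO 3 (0.85 to 1.11). DESeq2 alone ended the calls of SNORD69, SNORD83A and SNORD100. Among members not called, leaving out 1 library gave log2 fold changes on both sides of 0 for ENSG00000207425 (-0.05 to 0.14), ENSG00000207383 (-0.05 to 0.37), RN7SL381P (-0.14 to 0.32), ENSG00000201820 (-0.80 to 0.11), SNORA55 (-0.60 to 0.01), RN7SKP80 (-0.08 to 0.61), RN7SL751P (-0.36 to 0.42, and 0.00 with no filter) and SNORA66 (-0.71 to 0.13).

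The log2 ratio of the misc_RNA sum was 2.63, and -0.05 without RN7SL2, -0.38 for members with no shared words, 0.47 for members in no other gene and 4.01 for those with at least 100 counts. For snRNA it was -0.20, and -0.57 without the U2 copy, which is also its value for members with no shared words, and 0.71 with at least 100 counts. For snoRNA it was -0.56, and 0.29 for the 4 members in no other gene. Leaving out 1 library gave 2.55 to 2.71 for misc_RNA, -0.26 to -0.11 for snRNA, -0.59 to -0.52 for snoRNA and -1.15 to -0.65 for scaRNA. These alternatives change which members enter, and the cause of the other differences was not tested. With a median of 50 counts per member over 6 libraries, single members rest on few counts, and in the simulation, at a log2 fold change of 1, 28 of 54 changed genes of low count were recovered. The effect of depth on the sums was not tested.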

Other observations

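Rows of the same 4 biotypes below the minimum, with 1 to 29 counts, were summed as values outside the report's comparisons. These 1431 rows summed to 1569 ± 38.5 normalized counts over WT and 1286 ± 83 over GFI1-KO libraries (SD, n = 3 each). The snRNA rows among them went from 563 ± 11.4 to 430 ± 28.5, the snoRNA rows from 347 ± 10.8 to 278 ± 24.3 and the misc_RNA rows from 636 ± 30.8 to 557 ± 36.9 (SD, n = 3 each), without overlap, while the 21 scaRNA rows overlapped at 22.6 ± 2.39 and 20.8 ± 2.39.

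Among the members that the filter left out, SNORD15B, in an intron of the ribosomal protein gene RPS3, averaged 14 ± 8.49 normalized counts over WT and 2.83 ± 1.88 over GFI1-KO libraries (SD, n = 3 each). SNORD12B, on an exon of the noncoding host ZFAS1, had 2.13 ± 1.85 in WT and 10.7 ± 4.8 in GFI1-KO (SD, n = 3 each). The groups did not overlap in either.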
